A study of Rattus norvegicus with 20 samples.

Results

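The transcripts described here are the 150 rows, of 36685 on the array, whose mean level was most clearly higher in both treated groups of rats than in both untreated groups. A row is a transcript cluster, meaning the probes summarised together for 1 locus. For each row the lower of the rosiglitazone and resveratrol means was taken, the higher of the obese and lean means was subtracted, and rows whose rosiglitazone and resveratrol means differed by about 1.5-fold or more were set aside. This difference is called the score below. The 150 members are the highest scores among the 34397 rows within that limit. Because all 4 group means chose the members, differences between treated and untreated rats are given as descriptions, with no test.

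The study measured gene expression in subcutaneous tissue of male ZDF rats, an inbred form of the Zucker strain in which obesity and diabetes develop, on 1 array per rat. There were 5 arrays each from rosiglitazone, resveratrol, obese and lean control rats. Lean rats ate a standard Purina chow and obese rats a stock diet for 6 weeks. The labels give neither a dose nor a duration for either compound, and whether the treated rats were obese is not recorded there, so treatment, body type and diet cannot be told apart in these comparisons. Per the labels, the samples within a group are biological replicates.

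Rosiglitazone is a thiazolidinedione that activates PPAR gamma, the nuclear receptor that directs fat cell differentiation. Resveratrol is a plant polyphenol studied for its effects on energy metabolism and on antioxidant defence. Subcutaneous fat holds fat cells together with their progenitors, connective tissue, vessels and resident macrophages, so the level of a transcript in a bulk sample depends on both the makeup of the tissue and the RNA of each cell. Here fewer cells of a type and less RNA per cell cannot be told apart.

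The tissue label was borne out by fat cell transcripts on every array. Adipoq lay between 10.5 and 11.0, Plin1 between 9.64 and 10.4 and Fabp4 between 11.1 and 11.4 on the log2 scale. Markers of other cell types varied between arrays. The summed level of 7 skeletal muscle markers was 9.02 in rosiglitazone 3 and at most 7.37 on any other array. The summed level of 7 markers of mammary or skin epithelium was 7.23 in rosiglitazone 3, 7.33 in obese 4, 8.36, 9.53 and 8.77 in lean 3, 4 and 5, and at most 6.20 elsewhere. Csn1s1, a milk casein that is not on that list, was 10.1, 2.67, 10.7, 2.73 and 10.2 in the rosiglitazone arrays and at most 3.41 in the resveratrol arrays, against 1.68, 2.05, 11.3, 11.1 and 5.48 in the obese arrays and 6.54, 1.15, 11.4, 11.8 and 11.4 in the lean arrays. Casein was therefore high in arrays of 3 groups, rosiglitazone 1 and 5 and obese 3 among them, and the part of mammary tissue in the members' values was not tested. Over all rows the SD within an array was 1.93 to 1.98 for rosiglitazone and 1.90 to 1.93 for resveratrol, against 1.66 to 1.89 for obese, lowest in obese 3, and 1.82 to 1.95 for lean rats. No strip, scan or extraction batch is given in the sources used here.

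Of the 150 members, 75 carried 1 gene symbol, 4 carried several and 71 carried none in the annotation used here. The share without a symbol was 47.3% among members and 57.3% among all rows. The highest score was 1.36 (2.57-fold), the median 0.75 (1.68-fold) and the lowest 0.66 (1.58-fold), and 18 members scored at least 1. The last members inside the limit of 150 were Unc5b and an unnamed row, with scores of 0.664 and 0.665, and the first rows outside it were Uprt and an unnamed row, with 0.664 and 0.663. The median score over all rows was -0.21. The mean of both treated means minus the mean of both untreated means had a median of 0.98 over the members, from 0.71 to 1.77, and of -0.03 over all rows.

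The members were mostly bright rows. When all rows were sorted by mean level into 10 bins of equal size, 48 members fell in the brightest bin, 39 in the next and 26 in the third. All rows of those bins also leaned upward, with median treated minus untreated differences of 0.25, 0.24 and 0.16, while the members there had medians of 0.93, 0.98 and 1.08. All 75 members with 1 symbol lay above the median row level of 2.55. There were 9 members whose higher treated mean lay below that level. In addition, 2 unnamed members held identical values on all 20 arrays. A run of 6 members with neighbouring row numbers included Capns1, the small regulatory subunit of calpain proteases, and 5 rows without a symbol, so these 6 may not be independent.

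**Figure D1:**
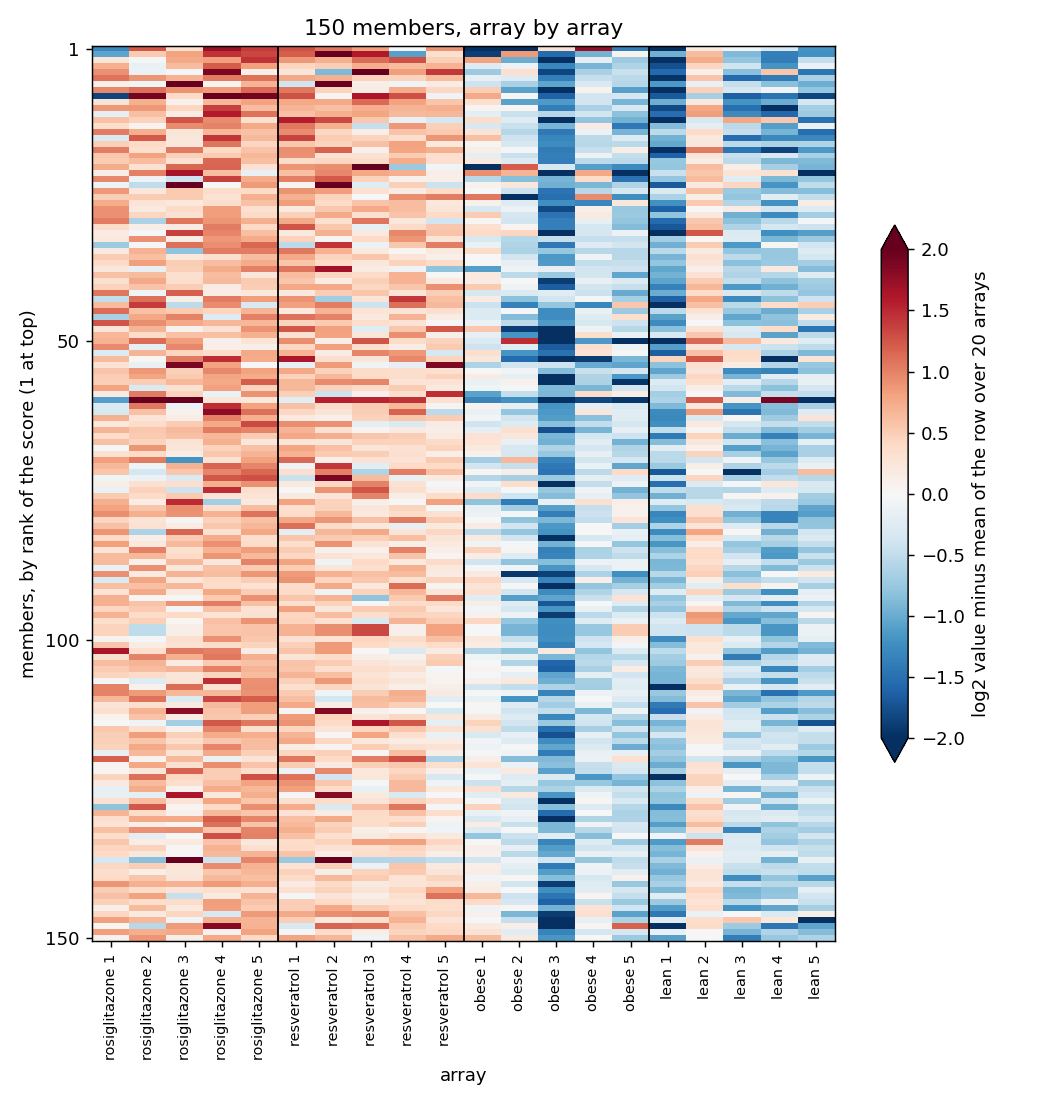
Log2 value minus the mean of the row over 20 arrays (colour, from -2 to 2) for the 150 members (rows, ranked by score) on each array (columns, by group). The rosiglitazone and resveratrol arrays are red in most rows, obese 3 is the bluest column, and lean 2 is paler than the other lean arrays.

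The untreated groups were uneven across these transcripts. Lean 2 was the highest of the 5 lean arrays in 126 of the 150 members and exceeded the lowest treated array in 135. Obese 1 was the highest obese array in 84 members, and obese 3 was the lowest in 119. Lean 1 was the lowest lean array in 72. The median level of the members was 5.21 to 5.69 in the treated arrays, against 4.93 in obese 1, 3.56 in obese 3, 5.28 in lean 2 and 4.04 in lean 1. The median SD of a member within a group was 0.35 in rosiglitazone, 0.31 in resveratrol, 0.56 in obese and 0.55 in lean rats, while the median SD over all rows was 0.23, 0.22, 0.36 and 0.27 in the same groups. Cell type markers also differed between arrays. The 6 macrophage markers summed to 9.68 in lean 2 and to 7.68 to 8.42 in the other lean arrays. In obese 1 they summed to 9.52, within the obese range of 9.18 to 10.4. The epithelial markers were low in both lean 2 (5.59) and lean 1 (5.16), against the higher values of lean 3, 4 and 5. Fibroblast markers summed to 11.8 in lean 2 and 9.58 in lean 1, with the other lean arrays between. Obese 3 had the lowest fibroblast marker sum of the obese arrays, 10.4, and the smallest SD over all rows. Their part in the members' values was not tested.

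To read each array on rows it had not helped to choose, the rule was repeated 20 times with 1 array left out, and the 150 rows chosen were then read on that array. The left-out array lay nearer the treated than the untreated mean in 73.3% to 95.3% of those rows for rosiglitazone arrays and in 75.3% to 86.0% for resveratrol arrays. The share was 63.3% for obese 1 and 6.67% to 28.7% for the other obese arrays. It was 91.3% for lean 2 and 6.00% to 22.7% for the other lean arrays. Every treated array therefore fell on the treated side in most rows, and so did lean 2 and obese 1. The left-out array lay above the untreated mean by a median of 0.77 to 1.19 for rosiglitazone and 0.67 to 0.92 for resveratrol. That median was 0.61 for obese 1 and 0.94 for lean 2. Over all rows it was between -0.06 and 0.06 on every array. The members were mostly bright rows, which leaned upward. No rows matched for level were read this way, so these shares and medians are descriptions.

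**Figure D2:**
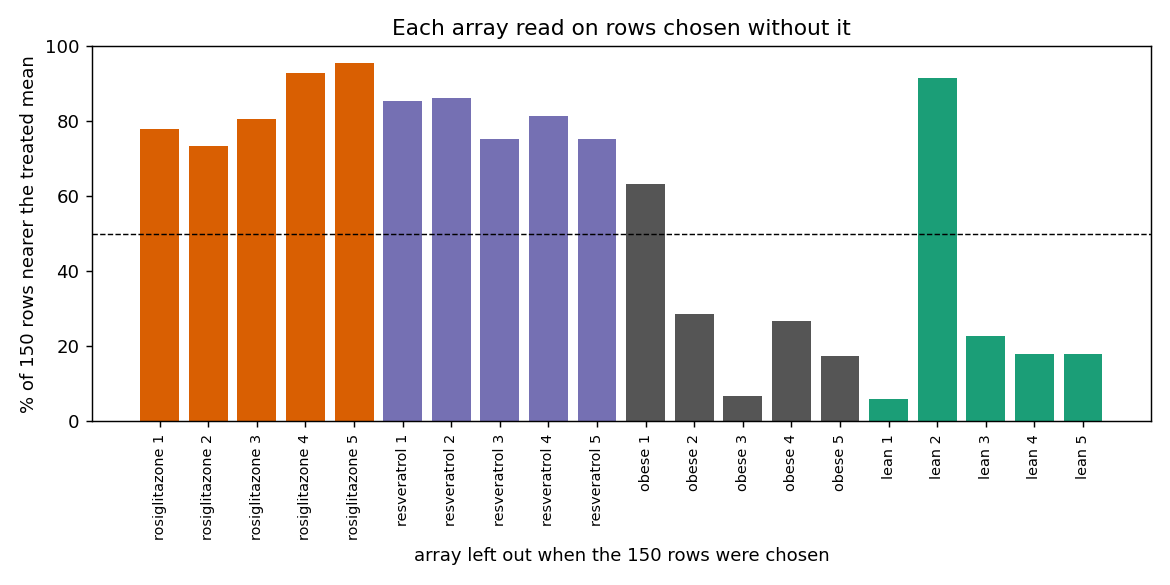
Share of the 150 rows chosen without an array in which that array lay nearer the treated mean (bars, percent), for each of the 20 arrays. Obese 1 (63.3%) and lean 2 (91.3%) are the untreated arrays above the dashed line at 50%.

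The membership itself depended on single arrays. Between 103 and 137 of the 150 members were chosen again when 1 array was left out, fewest without obese 3, and 113 and 117 were chosen again without lean 2 and lean 1. In all 20 repeats the same 35 members were chosen, 19 of them with 1 symbol. Those 19 were Ccr2, Rgs7bp, Slain2, Sema3c, Akr1b8, Slc16a12, Wars1, Dpysl3, Slc17a5, Gmfb, Prr32, Tlr7, Sowahc, Acer3, G6pc3, Fdft1, Nsdhl, Megf9 and Sgcb. Among them, Megf9 and Sgcb were not chosen again after quantile normalisation, nor was Sgcb after scaling arrays to a common SD.

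All 10 treated arrays exceeded all 10 untreated arrays in 7 members, against 58 of all rows (0.158%). The rule used these contrasts, so the share is a description. The 7 were Slc17a5, Gmfb, Sowahc, Nsdhl, Megf9, a row with several symbols and a row with none. All 5 rosiglitazone arrays exceeded all 10 untreated arrays in 30 members, against 3.22% of all rows, and all 5 resveratrol arrays did so in 20, against 0.496% of all rows. Without lean 2 the number of members with no overlap was 37, against 273 of all rows (0.744%). These shares, too, are descriptions of values that the rule used.

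The plot of 8 members shows 2 patterns of values. In Ccr2, Sema3c, Rgs7bp and Insig1 most arrays of each treated group were high, while in Hmox1, Hsph1, Bag3 and Zfand2a a single array of each treated group stood far above the other arrays.

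**Figure D3:**
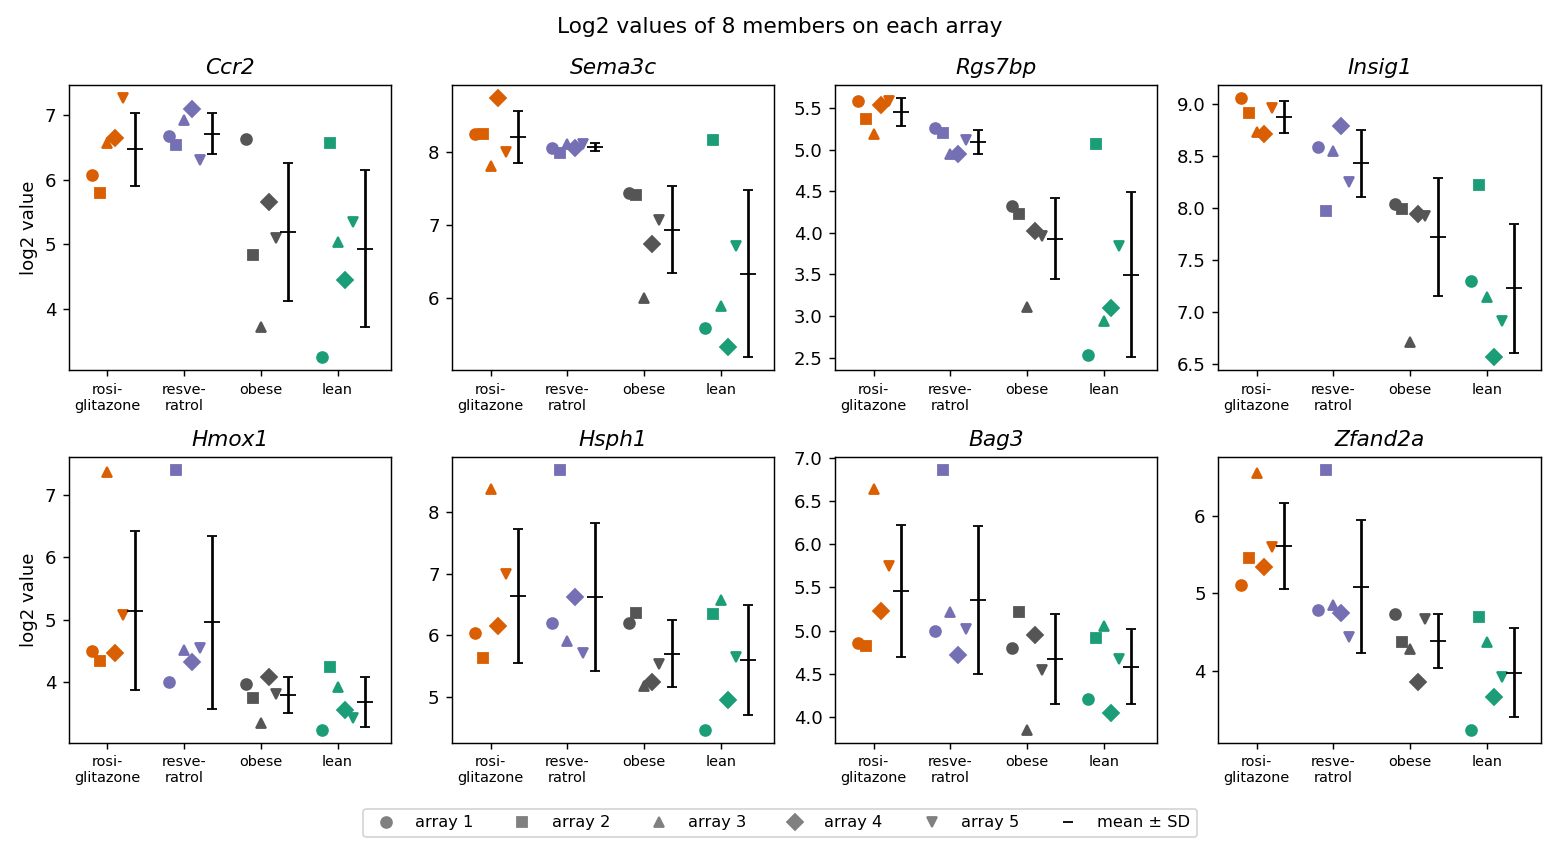
Log2 value on each array (points, marker shape by array number) with the group mean ± SD (bars, n = 5) for 8 members. Rosiglitazone 3 and resveratrol 2 are the highest points in each of the 4 lower panels, and lean 2 is the highest lean point in each of the 4 upper panels.

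The 7 members of the stress response come first, and their grouping, like the other groupings by role below, was made after the members were seen and was not tested. Heat shock factor 1 induces chaperones when proteins unfold, through binding sites made of repeated GAA units in alternating orientation, and NRF2 induces enzymes against oxidants. Hsph1 encodes an Hsp110 chaperone that exchanges the nucleotide of Hsp70, Bag3 a partner of Hsp70 that sends damaged proteins to autophagy, and Zfand2a a zinc finger protein of the proteasome induced by arsenite. The promoters of these 3 are printed. They are the members over 1 log2 unit high in both of the arrays named below with a match to 2 alternating GAA units. The sequences are RefSeq's for the GRCr8 build, plus strand, from 250 bases before to 50 after the gene start, with capitals for matches to GAANNTTC or TTCNNGAA.
Hsph1, chr12:10427118-10427417: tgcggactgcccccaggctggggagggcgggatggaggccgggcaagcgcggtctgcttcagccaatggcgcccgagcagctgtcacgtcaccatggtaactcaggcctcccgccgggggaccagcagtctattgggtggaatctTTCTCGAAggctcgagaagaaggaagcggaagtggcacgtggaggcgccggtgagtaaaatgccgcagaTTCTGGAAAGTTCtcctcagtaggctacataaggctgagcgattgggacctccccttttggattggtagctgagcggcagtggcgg
Bag3, chr1:192533210-192533509: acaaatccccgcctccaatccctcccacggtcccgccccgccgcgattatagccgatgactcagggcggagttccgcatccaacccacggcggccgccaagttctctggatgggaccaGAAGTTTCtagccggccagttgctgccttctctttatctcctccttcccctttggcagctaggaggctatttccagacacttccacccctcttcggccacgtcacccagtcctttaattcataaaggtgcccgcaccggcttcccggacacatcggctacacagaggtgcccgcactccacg
Zfand2a, chr12:20275200-20275499: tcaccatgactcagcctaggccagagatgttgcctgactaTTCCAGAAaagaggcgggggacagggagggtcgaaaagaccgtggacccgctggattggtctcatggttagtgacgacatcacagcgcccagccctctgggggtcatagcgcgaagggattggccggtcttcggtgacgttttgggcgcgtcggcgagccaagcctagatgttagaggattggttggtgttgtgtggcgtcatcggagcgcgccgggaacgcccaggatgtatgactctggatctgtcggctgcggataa

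Hsph1 held 3 such matches, of which overlapping ones formed TTCNNGAANNTTC, and Bag3 and Zfand2a held 1 each. A match to GAANNTTC or TTCNNGAA, on either strand since each reads the same on both, was present in 15.9% of 33469 promoters of this length and in 11 of the 68 members with a promoter in the table (16.2%), so its share among members was near that of all promoters. The longer GAANNTTCNNGAA or TTCNNGAANNTTC was present in 0.798% of promoters and, among the members, in Hsph1. A match is a run of letters and not a measured binding site.

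Hsph1 read 6.04, 5.64, 8.38, 6.16 and 7.0 in the rosiglitazone arrays and 6.19, 8.68, 5.91, 6.62 and 5.72 in the resveratrol arrays. The untreated arrays held 6.21, 6.37, 5.17, 5.24 and 5.54 in obese and 4.47, 6.34, 6.58, 4.96 and 5.64 in lean rats. The highest values were those of rosiglitazone 3 and resveratrol 2, and the other treated arrays lay in the range of the untreated ones or just above it. In rosiglitazone rats Bag3 was at 4.86, 4.82, 6.64, 5.22 and 5.75, and in resveratrol rats at 4.99, 6.86, 5.21, 4.71 and 5.02. Against these, obese rats had 4.80, 5.22, 3.85, 4.95 and 4.55 and lean rats 4.21, 4.92, 5.05, 4.05 and 4.67. The same arrays were again the highest of their groups.

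The rosiglitazone arrays gave 5.10, 5.46, 6.55, 5.34 and 5.61 for Zfand2a, and the resveratrol arrays gave 4.79, 6.60, 4.86, 4.75 and 4.44. Obese arrays gave 4.74, 4.37, 4.29, 3.86 and 4.67, and lean arrays 3.24, 4.70, 4.37, 3.66 and 3.92. Here the remaining rosiglitazone arrays were also above every untreated array. Hmox1 encodes heme oxygenase 1, which breaks down heme. The log2 values of Hmox1 were 4.50, 4.34, 7.36, 4.47 and 5.07 in rosiglitazone rats and 4.0, 7.39, 4.52, 4.32 and 4.55 in resveratrol rats. In the obese rats they were 3.98, 3.75, 3.34, 4.09 and 3.82, and in the lean rats 3.25, 4.24, 3.93, 3.56 and 3.42. In each of these 4 members rosiglitazone 3 and resveratrol 2 exceeded every other array. Relative to the median of the other arrays, Hmox1 was 2.87 higher in rosiglitazone 3 and 2.97 higher in resveratrol 2, Hsph1 2.28 and 2.63, Bag3 1.60 and 1.85, and Zfand2a 1.16 and 1.82. A row shared by several chaperone genes was 3.89 and 4.29 higher in these arrays.

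These 5 members were the ones more than 1 log2 unit above the median of the other arrays in both rosiglitazone 3 and resveratrol 2. They made up 3.33% of the members, against 0.153% of all rows (56 rows). A high value in both arrays raises both treated means, which the rule used, so nothing is read from this share. None of the 5 was chosen again when these arrays were left out together. The score of Hmox1 was then 0.55 in place of 1.16, that of Hsph1 0.40 in place of 0.92, that of Zfand2a 0.32 in place of 0.70 and that of Bag3 0.31 in place of 0.69. The shared row had -0.19 in place of 0.68. Over all members 112 were chosen again without these arrays.

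**Figure D4:**
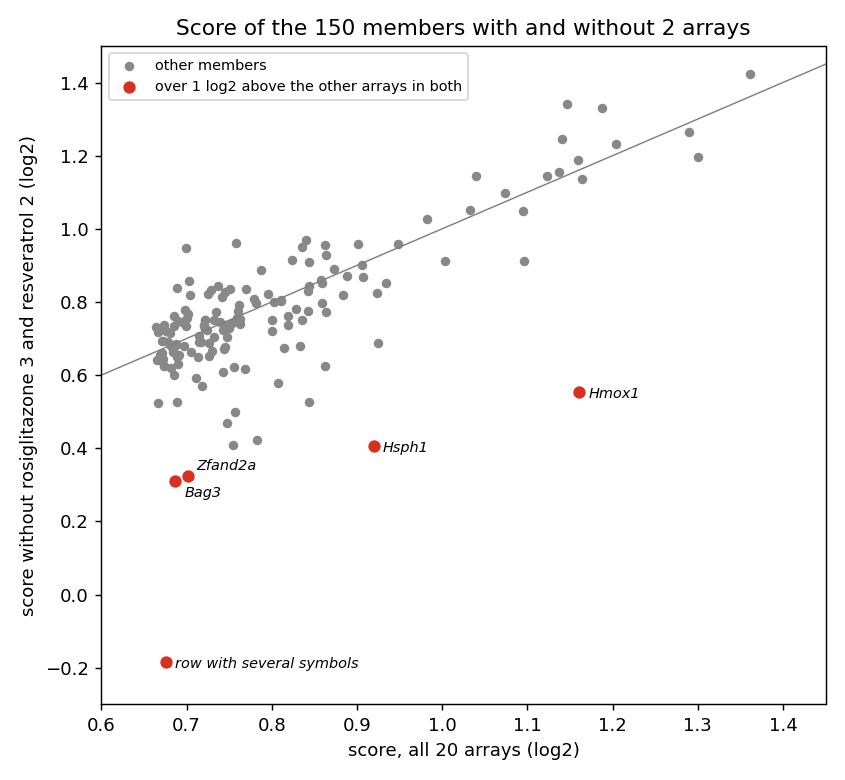
Score of each of the 150 members without rosiglitazone 3 and resveratrol 2 (vertical, log2) against its score with all 20 arrays (horizontal, log2). The line marks equal scores. The 5 red points, over 1 log2 unit high in both arrays, lie farthest below the line, with Hmox1 at 0.55.

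Of the 14 rows of a heat shock list that were not members, 5 were higher in both rosiglitazone 3 and resveratrol 2 than on every other array, and 3 were over 1 log2 unit above the median of the other arrays of the group in both. Dnajb1, a co-chaperone of Hsp70, was 6.07 in rosiglitazone 3 and 6.47 in resveratrol 2, and at most 4.33 on any other array. Hspb1, a small heat shock protein, was 7.82 and 7.97 there and at most 6.89 elsewhere. Hsp90ab1, a cytosolic Hsp90, did not separate these arrays: it was 7.71 and 7.53 there, against 7.66 in lean 2 and 7.44 in lean 3. The genes named here were chosen after their values were seen. Rosiglitazone 3 was also the array with the highest skeletal muscle markers (Acta1 7.93, Ckm 5.25) and with high keratins (Krt14 6.15, Krt1 5.31), whereas in resveratrol 2 the muscle markers summed to 5.63, Acta1 was 3.39 and Krt14 was 2.59. The part of cell makeup in the chaperone values was not tested. Among the 14 rows the median treated minus untreated difference was 0.49 and 12 were above 0, where 45.8% of all rows were above 0. All rows are not a baseline matched for level, here or for the lists below. The brightest bins of rows leaned upward, with median differences of 0.25, 0.24 and 0.16. The list was written after the members were seen.

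Hspb7, a small heat shock protein of heart and skeletal muscle, did not follow these arrays. Hspb7 read 2.01, 5.76, 4.24, 6.14 and 5.75 in the rosiglitazone arrays and 5.12, 3.91, 5.47, 5.13 and 3.78 in the resveratrol arrays. The untreated arrays held 4.60, 3.87, 2.23, 3.47 and 3.51 in obese and 2.17, 3.18, 2.22, 2.36 and 2.01 in lean rats. It was low in rosiglitazone 1, below obese 1 in rosiglitazone 3, and high in rosiglitazone 2, 4 and 5. Resveratrol 2 and 5 lay within the obese range. The treated minus untreated difference of Hspb7, 1.77, was the largest among all members. Without rosiglitazone 3 and resveratrol 2 its score was 1.34 in place of 1.15. Of the 7 stress members, Hspb7 was the one chosen again without those arrays.

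The aldo-keto reductase Akr1b8 and prostaglandin reductase Ptgr1, with Hmox1, are genes that NRF2 is known to induce. In rosiglitazone rats Akr1b8 was at 3.27, 4.06, 3.61, 5.04 and 4.54, and in resveratrol rats at 4.04, 4.16, 4.24, 4.10 and 4.11. Against these, obese rats had 3.28, 3.01, 2.88, 3.08 and 2.64 and lean rats 1.93, 4.29, 2.19, 1.88 and 2.74. Lean 2 exceeded the resveratrol arrays, and the other lean arrays were below all treated arrays. Ptgr1 averaged 4.73 ± 0.16 in rosiglitazone and 4.99 ± 0.20 in resveratrol rats, against 3.89 ± 0.79 in obese and 3.60 ± 0.80 in lean rats (SD, n = 5 each). An NRF2 list was written after the members were seen. Of its 9 non-members, 8 had treated minus untreated differences above 0 (45.8% of all rows, not matched for level). The median difference was 0.44. The largest were those of Nqo1, a quinone reductase (0.87), and Gclc, the catalytic subunit for glutathione synthesis (0.72).

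There were 4 members of sterol synthesis or its control, and their treated arrays were more even. Fdft1 is squalene synthase, Nsdhl an enzyme that removes a carboxyl group from a sterol intermediate, Insig1 the protein that holds the SREBP activator in the endoplasmic reticulum, and Tmem97 a sterol-responsive membrane protein. The rosiglitazone arrays gave 9.05, 8.91, 8.73, 8.70 and 8.96 for Insig1, and the resveratrol arrays gave 8.58, 7.97, 8.55, 8.78 and 8.25. Obese arrays gave 8.04, 7.99, 6.72, 7.95 and 7.92, and lean arrays 7.30, 8.22, 7.15, 6.57 and 6.92. Lean 2, obese 1 and obese 2 lay above the lowest resveratrol array, and the rosiglitazone arrays were above all others but resveratrol 4. After quantile normalisation or scaling arrays to a common SD, Insig1 was not chosen again, while Fdft1, Nsdhl and Tmem97 were.

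The log2 values of Fdft1 were 6.56, 6.04, 5.97, 5.88 and 6.13 in rosiglitazone rats and 5.65, 6.13, 5.72, 5.70 and 5.78 in resveratrol rats. In the obese rats they were 5.17, 5.41, 4.20, 5.30 and 4.73, and in the lean rats 4.93, 5.74, 4.68, 4.46 and 4.80. Apart from lean 2, every untreated array was below every treated one. Nsdhl read 5.70, 5.38, 5.21, 5.10 and 5.10 in the rosiglitazone arrays and 4.89, 4.96, 4.80, 4.73 and 4.47 in the resveratrol arrays. The untreated arrays held 4.33, 3.91, 3.31, 4.13 and 4.02 in obese and 3.19, 4.43, 3.62, 3.61 and 3.96 in lean rats. For Nsdhl the lowest treated array, resveratrol 5, was just above the highest untreated one, lean 2. Tmem97 averaged 4.25 ± 0.19 in rosiglitazone and 3.80 ± 0.17 in resveratrol rats, against 3.07 ± 0.74 in obese and 2.82 ± 0.47 in lean rats (SD, n = 5 each). Treated minus untreated differences in these 4 genes were 1.01 to 1.18, and 3 of the 4 were chosen again without rosiglitazone 3 and resveratrol 2, Nsdhl being the exception. Its score was then 0.78 in place of 0.83, above the lowest score chosen (0.67), but its rosiglitazone minus resveratrol difference of 0.60 was past the 1.5-fold limit.

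All 4 sterol members were higher in rosiglitazone than in resveratrol rats, by 0.53 ± 0.21 for Nsdhl (SE, limma adjusted p = 0.310), 0.45 ± 0.27 for Tmem97 (adjusted p = 0.695), 0.44 ± 0.27 for Insig1 (adjusted p = 0.701) and 0.32 ± 0.23 for Fdft1 (adjusted p = 0.805). None of these differences passed limma's test. A sterol list was written after the members were seen. Of its 12 non-members, 10 had treated minus untreated differences above 0 (45.8% of all rows, not matched for level). The median difference was 0.48. Dhcr7, the last enzyme of cholesterol synthesis by one route, had 1.15, Sc5d, a sterol desaturase, 0.94, and Fdps, which makes farnesyl diphosphate, 0.92.

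Another 6 members are genes of monocytes, macrophages or neutrophils. Ccr2 is the receptor through which monocytes follow the chemokine Ccl2. In rosiglitazone rats Ccr2 was at 6.07, 5.80, 6.58, 6.65 and 7.27, and in resveratrol rats at 6.68, 6.54, 6.93, 7.11 and 6.30. Against these, obese rats had 6.63, 4.83, 3.71, 5.65 and 5.10 and lean rats 3.24, 6.57, 5.03, 4.45 and 5.35. Obese 1 and lean 2 were at the treated level, and the remaining untreated arrays were below every treated array. The spread within the untreated groups, 1.07 in obese and 1.22 in lean rats (SD, n = 5 each), was larger than in rosiglitazone (0.57) or resveratrol (0.32) rats.

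Tlr7 senses single-stranded RNA in endosomes. The rosiglitazone arrays gave 5.11, 4.64, 4.57, 4.71 and 4.96 for Tlr7, and the resveratrol arrays gave 5.20, 4.76, 4.94, 4.98 and 4.57. Obese arrays gave 4.45, 4.10, 3.13, 3.06 and 4.60, and lean arrays 3.16, 4.88, 3.78, 3.15 and 4.52. Lean 2 at 4.88 and obese 5 at 4.60 lay within the treated range. Plbd1, a lysosomal phospholipase B-like protein, averaged 8.05 ± 0.16 in rosiglitazone and 7.56 ± 0.17 in resveratrol rats, against 6.81 ± 0.60 in obese and 6.31 ± 0.69 in lean rats (SD, n = 5 each). Aoah, which inactivates bacterial lipopolysaccharide, averaged 3.92 ± 0.21 in rosiglitazone and 4.33 ± 0.21 in resveratrol rats, against 3.18 ± 0.50 in obese and 2.85 ± 0.75 in lean rats. Trem1, an activating receptor of neutrophils and monocytes, was dim in all groups, with means of 3.57 in rosiglitazone, 3.38 in resveratrol, 2.62 in obese and 2.70 in lean rats. Npl, a lyase of sialic acid, had means of 5.80, 5.40, 4.69 and 4.51 in the same groups.

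General macrophage markers were less uniform. Of 6 markers, 5 had treated minus untreated differences above 0, with a median of 0.43, and 3 had a score above 0. Of all rows, not matched for level, 45.8% and 24.1% did. Itgam, a complement receptor subunit, averaged 3.94 in rosiglitazone and 4.06 in resveratrol rats, against 3.68 in obese and 3.27 in lean rats. Csf1r, the receptor of macrophage colony-stimulating factor, averaged 6.26 in rosiglitazone and 6.73 in resveratrol rats, against 6.12 in obese and 5.78 in lean rats, and Adgre1, the F4/80 antigen in mice, 3.76 and 3.92 in the treated groups, against 3.55 and 3.71 in obese and lean rats. Cd68, a lysosomal macrophage protein, averaged 5.65 in rosiglitazone and 6.69 in resveratrol rats, against 6.36 in obese and 4.89 in lean rats, and the abundant lysozyme gene Lyz2 averaged 8.54 and 9.36 in the treated groups, against 9.42 and 7.82 in obese and lean rats. The summed level of the 6 markers, of which Lyz2 is the brightest, was 8.54 to 9.48 in rosiglitazone and 9.40 to 10.1 in resveratrol arrays, against 9.18 to 10.4 among obese and 7.68 to 9.68 among lean arrays. A monocyte and macrophage list was written after the members were seen. Of its 10 non-members, 8 had treated minus untreated differences above 0, with a median of 0.27. A score above 0 was found for 4 of them. All rows of the brightest bin and the next had median differences of 0.25 and 0.24.

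The summed level of 6 lymphocyte markers was 7.77 to 8.22 in rosiglitazone and 8.36 to 9.18 in resveratrol arrays, against 7.73 to 9.07 in obese and 6.77 to 8.64 in lean arrays. Cd3e and Ms4a1, which define T and B cells, were at most 2.30 on every array, and the sum came mostly from Cd4, with group means of 6.84 to 8.55, and Ptprc, with group means of 5.26 to 6.20. Ptprc, found on all white blood cells, averaged 5.84 in rosiglitazone and 6.20 in resveratrol rats, against 5.73 in obese and 5.26 in lean rats. All 6 myeloid members were chosen again without rosiglitazone 3 and resveratrol 2. The part of macrophage and other white blood cell number in their values was not tested.

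A group of 9 members encode matrix proteins or factors of mesenchymal cells. Sema3c is a secreted semaphorin, a class of signals that guide migrating cells and axons. The log2 values of Sema3c were 8.25, 8.25, 7.81, 8.75 and 8.0 in rosiglitazone rats and 8.06, 8.0, 8.12, 8.06 and 8.12 in resveratrol rats. In the obese rats they were 7.44, 7.42, 6.0, 6.75 and 7.07, and in the lean rats 5.58, 8.17, 5.88, 5.32 and 6.72. The resveratrol arrays were nearly equal, and lean 2 at 8.17 was the one untreated array inside the treated range. Osr1 is a transcription factor of mesenchymal progenitors. Osr1 read 6.70, 5.05, 6.76, 6.57 and 6.39 in the rosiglitazone arrays and 6.43, 6.0, 6.74, 5.89 and 5.30 in the resveratrol arrays. The untreated arrays held 5.71, 5.30, 4.32, 5.53 and 4.91 in obese and 4.12, 6.23, 4.85, 5.15 and 5.66 in lean rats. Rosiglitazone 2 was low at 5.05, and lean 2 was the highest untreated array.

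Timp1, an inhibitor of matrix metalloproteinases, was the only member among the 218 genes with a row on 25 lists of pathways and cell types. It averaged 5.52 ± 0.90 in rosiglitazone and 5.53 ± 0.60 in resveratrol rats, against 4.86 ± 1.18 in obese and 3.90 ± 1.02 in lean rats (SD, n = 5 each). Its obese minus lean difference of 0.96 ± 0.54 (SE, limma adjusted p = 0.446) did not pass the test. Fbn1, the microfibril protein fibrillin-1, averaged 8.54 ± 0.70 in rosiglitazone and 8.43 ± 0.38 in resveratrol rats, against 7.52 ± 0.49 in obese and 7.68 ± 0.82 in lean rats, and Mfap5, which associates with microfibrils, averaged 7.53 ± 0.46 in rosiglitazone and 7.10 ± 0.13 in resveratrol rats, against 6.36 ± 0.18 in obese and 6.39 ± 0.97 in lean rats. The remaining 4 were Omd, a leucine-rich proteoglycan, Mme, the peptidase neprilysin, Gli2, a Hedgehog transcription factor, and Hoxc8, a positional homeobox factor. Their treated minus untreated differences were 0.97, 0.86, 0.80 and 0.91. The highest lean array was above every treated array for Mme (8.49 against at most 8.31) and for Hoxc8 (7.05 against at most 6.82). In the same order, the 4 were chosen again in 10, 17, 17 and 12 of the 20 repeats without 1 array. The major fibrillar collagens were not among the members: Col1a1 averaged 9.12 in rosiglitazone and 10.2 in resveratrol rats, against 10.2 in obese and 10.2 in lean rats.

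The members included 3 sarcoglycans, subunits of the complex that links dystrophin to the cell membrane in muscle and other tissues. In rosiglitazone rats Sgcb was at 7.63, 7.80, 7.84, 7.92 and 7.78, and in resveratrol rats at 8.04, 7.99, 7.82, 7.76 and 7.46. Against these, obese rats had 7.55, 7.49, 6.35, 6.92 and 6.85 and lean rats 5.85, 7.71, 6.27, 5.91 and 6.34. Lean 2, obese 1 and obese 2 lay within the treated range, and lean 1, 3, 4 and 5 were the lowest arrays together with obese 3. Sgca averaged 4.94 ± 0.34 in rosiglitazone and 4.98 ± 0.22 in resveratrol rats, against 4.18 ± 0.32 in obese and 3.94 ± 0.49 in lean rats (SD, n = 5 each). Sgcd averaged 4.68 ± 0.60 in rosiglitazone and 4.10 ± 0.45 in resveratrol rats, against 3.39 ± 0.42 in obese and 3.21 ± 0.52 in lean rats, and its difference between the treatments, 0.58, lay just inside the limit. In rosiglitazone 3, where skeletal muscle markers were high, Sgcb read 7.84 and Sgca 4.76. Sgcd was 0.38 above the median of the other arrays of the group in rosiglitazone 3 and 0.77 above it in resveratrol 2, and without these arrays it was not chosen again, with a score of 0.57 in place of 0.72. The part of muscle in the sarcoglycan values was not tested. Of 4 non-members on a list of the sarcoglycan and dystrophin complex written after the members were seen, 3 had treated minus untreated differences above 0, with a median of 0.31, and 1 had a score above 0.

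Lipid and prostaglandin genes contributed 6 members. Hpgd inactivates prostaglandins, Acer3 is an alkaline ceramidase, Abhd6 hydrolyses monoacylglycerol, Ptgfr is the receptor of prostaglandin F2 alpha, and Paqr7 is a membrane progestin receptor, besides Ptgr1. The rosiglitazone arrays gave 5.01, 5.11, 4.71, 4.83 and 5.11 for Acer3, and the resveratrol arrays gave 5.26, 4.95, 5.05, 4.78 and 4.60. Obese arrays gave 4.51, 4.14, 3.35, 4.41 and 3.94, and lean arrays 3.57, 4.80, 3.98, 3.75 and 4.14. Lean 2 was the only untreated array within the treated range. Hpgd averaged 5.89 ± 0.57 in rosiglitazone and 5.79 ± 0.34 in resveratrol rats, against 4.92 ± 1.02 in obese and 4.47 ± 1.42 in lean rats (SD, n = 5 each), and lean 2 at 6.50 was above all but 1 of the treated arrays.

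The membrane transporters among the members were Slc17a5, the lysosomal sialic acid exporter, Slc16a12, a carrier of the monocarboxylate family, Slc38a9, the lysosomal arginine sensor of the mTORC1 pathway, and Slc31a2, a copper transporter. The log2 values of Slc17a5 were 5.35, 5.61, 5.28, 5.34 and 5.48 in rosiglitazone rats and 5.72, 5.09, 5.11, 5.31 and 5.14 in resveratrol rats. In the obese rats they were 4.61, 4.37, 3.44, 4.71 and 4.32, and in the lean rats 3.20, 5.07, 4.35, 4.51 and 4.16. The lowest treated value, 5.09 in resveratrol 2, was just above lean 2 at 5.07. Slc16a12 averaged 4.64 ± 0.71 in rosiglitazone and 4.69 ± 0.41 in resveratrol rats, against 3.60 ± 0.68 in obese and 3.02 ± 0.69 in lean rats (SD, n = 5 each). All 4 transporters were chosen again without rosiglitazone 3 and resveratrol 2.

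Signalling and cytoskeletal genes formed the largest grouping, with 11 members. Rgs7bp anchors RGS7-family regulators of G protein signalling at the membrane. Rgs7bp read 5.58, 5.37, 5.19, 5.53 and 5.58 in the rosiglitazone arrays and 5.26, 5.20, 4.95, 4.94 and 5.12 in the resveratrol arrays. The untreated arrays held 4.33, 4.23, 3.10, 4.02 and 3.96 in obese and 2.54, 5.06, 2.95, 3.10 and 3.84 in lean rats. The treated arrays spanned 4.94 to 5.58, and lean 2 at 5.06 was the one untreated array within that range. Gmfb belongs to the actin-depolymerising protein family. In rosiglitazone rats Gmfb was at 8.07, 8.18, 7.87, 8.72 and 8.17, and in resveratrol rats at 7.93, 7.98, 7.94, 8.31 and 7.91. Against these, obese rats had 7.76, 7.30, 6.19, 7.04 and 7.04 and lean rats 6.80, 7.72, 7.04, 6.66 and 6.68. Its lowest treated array was above the highest untreated one, obese 1.

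Dpysl3, a microtubule-associated protein of growing neurons, averaged 6.64 ± 0.34 in rosiglitazone and 6.71 ± 0.40 in resveratrol rats, against 5.64 ± 0.65 in obese and 4.88 ± 1.24 in lean rats (SD, n = 5 each). Lean 2 at 7.01 was far above the other lean arrays, which lay between 3.94 and 4.83. Slain2, which promotes microtubule growth, averaged 4.89 ± 0.31 in rosiglitazone and 5.19 ± 0.21 in resveratrol rats, against 3.75 ± 0.61 in obese and 3.72 ± 0.57 in lean rats. The grouping also held Cyria, a regulator of the actin-nucleating WAVE complex, Prkaca, the catalytic subunit of protein kinase A, Unc5b, a netrin receptor, and Capns1, with treated minus untreated differences from 0.85 to 0.99.

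Wars1, the cytosolic tryptophanyl-tRNA synthetase, was almost equal within each pair of groups. The rosiglitazone arrays gave 6.52, 6.44, 6.27, 7.12 and 6.47 for Wars1, and the resveratrol arrays gave 6.59, 6.50, 6.63, 6.86 and 6.26. Obese arrays gave 6.10, 5.73, 4.80, 5.50 and 5.51, and lean arrays 5.03, 6.27, 5.51, 5.42 and 5.45. Its mean was 6.57 in both treated groups and 5.53 in both untreated groups. G6pc3, the glucose-6-phosphatase expressed in most tissues, averaged 6.15 ± 0.17 in rosiglitazone and 5.94 ± 0.12 in resveratrol rats, against 5.08 ± 0.43 in obese and 4.98 ± 0.45 in lean rats (SD, n = 5 each). Sowahc, an ankyrin repeat protein, averaged 5.81 ± 0.37 in rosiglitazone and 5.63 ± 0.31 in resveratrol rats, against 4.77 ± 0.09 in obese and 4.71 ± 0.37 in lean rats, with no overlap between treated and untreated arrays. Prr32, a proline-rich protein, averaged 5.57 ± 0.24 in rosiglitazone and 5.61 ± 0.33 in resveratrol rats, against 4.53 ± 0.56 in obese and 4.66 ± 0.62 in lean rats. Of 6 genes of translation, replication and division, namely Wars1, Eif5b, Rrm1, Cdc27, Haus1 and Tfb1m, 2 were chosen again without rosiglitazone 3 and resveratrol 2, Wars1 and Tfb1m. The scores of Eif5b, Haus1 and Cdc27 were then 0.65, 0.66 and 0.65 in place of 0.69, 0.68 and 0.67, so they moved little and lay close to the lowest score chosen, while that of Rrm1 was 0.61 in place of 0.74.

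A further 22 members with 1 symbol fall in none of these groupings, Akr1b8, G6pc3, Sowahc and Prr32 among them, with treated minus untreated differences from 0.72 to 1.32. Nnmt, which methylates nicotinamide, averaged 5.53 ± 0.34 in rosiglitazone and 5.48 ± 0.11 in resveratrol rats, against 4.53 ± 0.65 in obese and 4.78 ± 0.37 in lean rats (SD, n = 5 each). Ak3, an adenylate kinase of the mitochondrial matrix, averaged 8.78 ± 0.35 in rosiglitazone and 8.66 ± 0.15 in resveratrol rats, against 7.97 ± 0.41 in obese and 7.61 ± 0.59 in lean rats. In both genes the treated means were close to each other and the untreated SDs were wider. The 71 members without a symbol had treated minus untreated differences from 0.71 to 1.75.

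The rule left 2 contrasts free in direction, and these were tested with limma, with p-values adjusted over all rows by the Benjamini-Hochberg method. Their size was not free: because the score takes the lower treated mean and the higher untreated mean, a gap within either pair lowers it, so the counts of members below are not read against those of all rows. Between obese and lean rats, 0 of the 150 members were called at an adjusted p under 0.05, and 0.0845% of all rows were called (31 rows). An unadjusted p under 0.05 was found for 6 members (4.0%) and for 13.4% of all rows. The smallest adjusted p among the members was 0.259. Obese minus lean had a median of 0.02 over the members, was above 0 in 84 and below 0 in 66, and ranged from -1.84 to 1.15. Its size was at least 1.5-fold in 13 members, 5 higher and 8 lower in obese rats.

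The named members with the smallest p between obese and lean rats were chosen after their values were seen. Paqr7 was higher in obese rats by 0.50 ± 0.22 (SE, limma adjusted p = 0.350) and Sgcb by 0.61 ± 0.28 (adjusted p = 0.357). Of the named members Hspb7 differed most, by 1.15 ± 0.61 (limma adjusted p = 0.415). The 95% confidence interval of obese minus lean lay within 2-fold either way for 103 members and within 1.5-fold for 27. For the members outside those 103, the interval did not exclude a difference of more than 2-fold.

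Between rosiglitazone and resveratrol rats 0 members were called by limma, against 2.2% of all rows and 0.108% of the rows within the 1.5-fold limit, which capped the size of this difference in the members. An unadjusted p under 0.05 was found for 3 members (2.0%) and for 5.60% of the rows within the limit. The smallest adjusted p was 0.310, for Nsdhl. Rosiglitazone minus resveratrol was above 0 in 99 members (66.0%), against 46.1% of the rows within the limit, with a median of 0.07 and a range of -0.53 to 0.58. The interval lay within 2-fold for 107 members and within 1.5-fold for 21. The members were therefore alike in both treatments as the rule required, and for most of them equality closer than 1.5-fold was not shown.

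**Figure D5:**
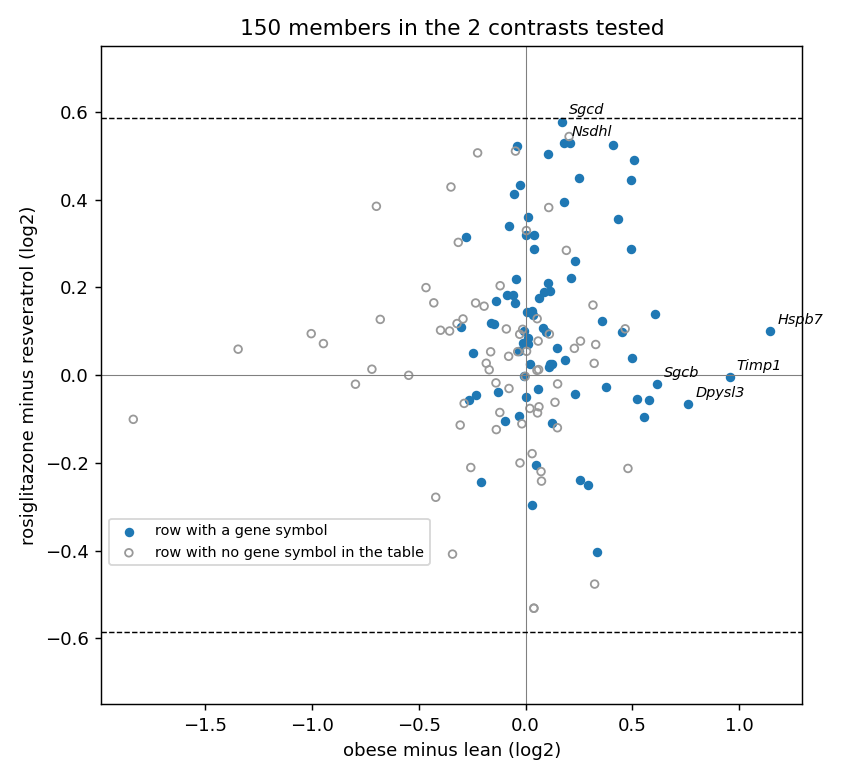
Rosiglitazone minus resveratrol (vertical, log2) against obese minus lean (horizontal, log2) for the 150 members, filled where a row has a gene symbol and open where it has none. The dashed lines mark the 1.5-fold limit in the rule. Hspb7 lies farthest to the right at 1.15.

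Genes of the 14 pathway lists moved mostly outside this set. Their 172 rows that were not members included 97 within the 1.5-fold limit. The lists were chosen with earlier results of these data known, and all rows are not matched to them for level. The counts beside shares of all rows are therefore descriptions. Between rosiglitazone and obese rats 97 of the 172 were called higher and 1 lower by limma, where 8.9% of all rows were higher and 6.12% lower. Between resveratrol and obese rats 0 were called, where 0% of all rows were called in either direction. At an unadjusted p under 0.05, 73 were higher and 2 lower in resveratrol rats, where 13.1% of all rows were higher. Between rosiglitazone and lean rats 68 were called higher and 2 lower, where 3.68% of all rows were higher and 1.7% lower. Between resveratrol and lean rats 0 were called higher and 2 lower, where 0.191% of all rows were higher and 0.0981% lower, and at an unadjusted p under 0.05 22 were higher and 13 lower, where 7.93% of all rows were higher. Contrasts with the same untreated group share its arrays. Of the 47 rows on the lists for beta oxidation, the respiratory chain and the tricarboxylic acid cycle, 4 lay within the limit, so the others could not become members. Of these 47, 44 were called higher in rosiglitazone than in obese rats.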

How the data were processed

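Total RNA (100 ng per sample) from 20 rat subcutaneous samples was hybridised to Rat Gene 2.1 ST arrays. The deposited values are log2 signals that the authors made with RMA, per the submitters' processing notes; its software, settings and batches are not stated in any source used here. RMA corrects background, normalises between arrays and summarises probes, which compresses low signals. The series table was used as deposited, with 36685 rows and no filter. Gene symbols came from GEO's platform annotation, updated through RefSeq (GRCr8). Of the rows 14824 had 1 symbol, 829 several and 21032 none, and 14670 matched RefSeq by gene ID. A gene on a list was read from its brightest row.

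The rule for the members was applied to group means. All rows were fitted with limma 3.58.1 (lmFit and eBayes, R 4.3.3) with 1 term per group and 19.8 degrees of freedom, and p-values were adjusted by Benjamini-Hochberg. The code was tested on simulated data. Scores and figures were made in Python 3.11.15 with matplotlib 3.10.9. The number of arrays limits precision: the median 95% interval of a member reached 0.64 to either side. The arrays of 1 group are labelled biological replicates, and no 2 arrays held identical values. Same-numbered arrays of different groups did not deviate together as a set (30 pairs, r from -0.49 to 0.38, 4 over 0.1). The main fit treated arrays as unpaired. Such correlations cannot exclude pairing, which the labels do not record.

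The members and lists were chosen with earlier results of these data known. Genes named by rule were the 20 members with 1 symbol and the highest score, members on 25 lists of pathways and cell types, and members called in a tested contrast (at most 10 each); other members were named by role after their values were seen. Rows with several symbols are not named. Alternatives were other normalisations, filters, priors, limits and summaries, array weights, a replicate block and leaving out arrays.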

Additional observations from a re-analysis of the deposited data

Results flagged for a closer look

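Within each group of 5 arrays, the named members and summary measures were searched for 1 array whose gap to its nearest neighbour exceeded Dixon's 95% critical value of 0.71 of the group's range. This happened in 7 of 88 groups, where about 4.4 would be flagged if all values were normally distributed. Over all rows obese 3 stood apart as high in 2.16% and as low in 2.45%, and lean 1 in 2.76% and 1.35%. The rule used the group means, which a single high array raises, so nothing is read from the count. Hmox1 was 7.36 in rosiglitazone 3, with the other rosiglitazone arrays at 4.34 to 5.07, and 7.39 in resveratrol 2, with the others at 4.0 to 4.55. Dpysl3 was 7.01 in lean 2 against 3.94 to 4.83 in the other lean arrays. G6pc3 was 5.78 in lean 2, with the others at 4.71 to 4.85. Wars1 was 7.12 in rosiglitazone 4, with the other rosiglitazone arrays at 6.27 to 6.52. Gmfb was 8.31 in resveratrol 4, with the others at 7.91 to 7.98. Osr1 was low at 5.05 in rosiglitazone 2, with the others at 6.39 to 6.76.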

How the results depend on the processing

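The rule chose 70 of the 150 members again with group medians in place of means, 102 after quantile normalisation, 120 after scaling arrays to a common SD, 130 after centring, 131 and 119 with limits of 1 and 0.3 log2 on the difference between treatments, 136 among rows above the median level, 101 without obese 3 and lean 1, and 103 to 137 without single arrays. The median score was 0.67 to 0.83 and the median treated minus untreated difference 0.88 to 1.07 when single arrays were left out. Members with no overlap of treated and untreated arrays numbered 7 with all arrays and 7 to 37 without single arrays (37 without lean 2, 11 without rosiglitazone 2). They numbered 14 after scaling to a common SD and 12 without rosiglitazone 3 and resveratrol 2, the last chosen after seeing the data. Over all rows the share with no overlap was 0.158% with all arrays and 0.744% without lean 2. For the other settings it is not given, so nothing is read from those counts.

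Between obese and lean rats, limma called 0 members under every alternative. Between rosiglitazone and resveratrol rats, 2 members passed in a fit of these groups alone (Plbd1 and an unnamed row, where 19 had an unadjusted p under 0.05) and 0 under every other alternative. The shares of all rows in that fit are not given here, so nothing is read from these counts. With the replicate block the counts were 0 and 0. The 21 members named by rule were called under none of the 30 settings. Groups of 5 arrays limit what differences of under 2-fold can be called.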
